A study of Mus musculus with 6 samples.

Results

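The genes described here are those of the D cyclin kinases and their inhibitors: the D cyclins Ccnd1, Ccnd2 and Ccnd3, the kinases Cdk4 and Cdk6, the CIP/KIP inhibitors Cdkn1a and Cdkn1b, the INK4 inhibitors Cdkn2c and Cdkn2d, and their substrate gene Rb1. They were taken by gene symbol, and these 10 genes, of 18193 with a probe set of their own, were read by 27 probe sets, each kept apart. A probe set is a group of short oligonucleotides on an Affymetrix array that together give 1 value for a transcript.

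The cells came from femur and tibia marrow of HdcGFP mice, all female and of C57BL/6 background, in which green fluorescence reports on Hdc, the histidine decarboxylase gene. Those positive for CD11b and Gr1 were divided by sorting into a group with positive or high reporter signal (GFP_plus, 3 arrays, a to c) and a group with negative or low signal (GFP_min, 3 arrays, a to c). Both groups carry the reporter, and the labels name no treatment and no deletion and give no age. Whether mice were pooled, and whether each sample had its own mouse, is not in the labels either. The p-values therefore reflect only how far these samples differ among themselves, and that spread may be technical. The description of GFP_min replicate b reads Gr1-negative, while its sorted-cell label reads Gr1-positive as for the other samples.

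D cyclins are made in response to growth factors, bind CDK4 or CDK6, and the active kinase phosphorylates the retinoblastoma protein RB, which then releases E2F transcription factors that drive genes of DNA replication. INK4 proteins bind CDK4 and CDK6 themselves and keep D cyclins off. CIP/KIP proteins bind cyclin and kinase together and act most strongly on CDK2. In the granulocyte line, cells divide up to the myelocyte stage and leave the cycle as they mature, and D cyclins differ in which blood cells rely on them.

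The deposited values are on a log2 scale with array medians between 2.82 and 2.88. The correlation between arrays was 0.996 to 0.997 within groups and 0.978 to 0.982 across them (over all probe sets, which are not independent replicates). The labelled cell type was checked by its markers: all 10 neutrophil line markers with a probe set of their own were tested, of which 5 were higher and 0 lower in GFP_plus. Of all genes tested, 21.0% were higher and 27.6% lower. The 5 include Ptprc, which is not particular to neutrophils. Hdc itself, whose reporter was sorted on, averaged 12.01 ± 0.06 in GFP_plus and 11.19 ± 0.03 in GFP_min on its brighter probe set. The pan-leukocyte gene Ptprc (CD45) averaged 13.39 ± 0.10 in GFP_plus and 13.24 ± 0.05 in GFP_min, and CD11b's gene Itgam was bright in both groups (11.84 ± 0.13 in GFP_plus and 11.58 ± 0.23 in GFP_min, SD, n = 3 each). Monocyte and macrophage markers were lower in GFP_plus for 11 of 11, with a linear-scale sum of 4577 to 4715 in GFP_plus arrays and 47750 to 49630 in GFP_min arrays. The part of this difference in cell makeup in the results below was not tested, and in bulk RNA fewer cells of a type and less RNA per cell cannot be told apart. Of the dendritic cell markers 4 of 6 were lower and 1 higher (sum 130.6 to 157 in GFP_plus, 593.2 to 696.8 in GFP_min), and basophil and mast cell markers were higher for 5 of 5 (sum 228.6 to 314.2 in GFP_plus, 34.51 to 34.72 in GFP_min). Cpa3 and Fcer1a passed the filter on dim probe sets through GFP_plus alone, and Cd209a, Irf4 and Siglech of the dendritic list through GFP_min alone. Stem and progenitor markers were higher for 4 of 4 tested of 6 (sum 4436 to 4965 in GFP_plus, 2892 to 3241 in GFP_min), while Cd34 and Mecom were too dim to be tested. Cd34 and Mecom averaged lower in GFP_plus, at 2.18 and 2.14 against 2.61 and 2.47 in GFP_min. Gata2, among the 4, is also among the 5 basophil and mast cell markers. Eosinophil markers were higher for 2 of 2 tested of 6 (sum 422.1 to 523.3 in GFP_plus, 164.1 to 186.6 in GFP_min), while Ccr3, Il5ra and Prg3 lay below the median on every array. T and NK cell markers were lower for 2 of 2 tested of 5 (sum 30.23 to 38.03 in GFP_plus, 62.29 to 79.21 in GFP_min), with Cd3e, Cd3g and Ncr1 below the median on every array. B cell markers were lower for 1 of 3 tested, erythroid markers higher for 2 of 2 tested and megakaryocyte markers higher for 2 of 3 tested. Each of these lists had a sum of at most 83.79 on any array. Epor, Hba-a1 and Klf1 of the erythroid list lay below the median on every array, as did Pax5 of the B cell and Ppbp of the megakaryocyte list. Car1 of the erythroid list and Itga2b of the megakaryocyte list passed the filter through GFP_plus alone. Against the array medians they were at least 1.15-fold and 1.16-fold higher there. The part of these lists in the results below was not tested either. The gap between 3′ and 5′ probe sets of Gapdh, a sign of RNA quality, was 0.59 to 0.66 in GFP_plus and 0.26 to 0.37 in GFP_min, and that of Actb was 0.82 to 0.90 in GFP_plus and 0.79 to 0.83 in GFP_min, where the groups overlapped.

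The comparison sets sorted cells with a strong Hdc reporter against sorted cells in which it was weak or missing. Among the D cyclins, Ccnd2 was 2.17-fold to 5.10-fold higher in GFP_plus on 6 of its 7 probe sets and Ccnd3 was 1.41-fold to 2.20-fold higher on 3 of 3, while Ccnd1, dim in both groups, was 1.85-fold lower on the 1 probe set that passed. The kinases went opposite ways, Cdk6 up by 1.77-fold and 1.88-fold and Cdk4 down by 2.08-fold to 2.26-fold. Of the inhibitors, Cdkn1a was lower by 2.87-fold and 1.77-fold, Cdkn2d was 1.34-fold higher, Cdkn1b was 1.65-fold higher on 1 of 2 probe sets, and Cdkn2c did not pass. Rb1 did not pass either.

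Only probe sets above the array median on 3 or more of the 6 arrays were tested, which 24 of the 27 were. With limma's moderated test, adjusted by Benjamini-Hochberg over all 22956 tested probe sets, 19 of the 24 were called at an adjusted p under 0.05, where 44.6% of all tested probe sets were called. Of these, 13 were higher in GFP_plus (21.7% of all tested probe sets were) and 6 were lower (22.9% of all). The 19 read 8 of the 10 genes, with 6 of them on Ccnd2, so they are not 19 separate members. Of all genes tested, each by 1 probe set, 48.7% were called. The 8 count a gene with any of its probe sets called, so the measures differ. The median difference of the 24 was 0.46, against 0.04 over all tested probe sets. As 7 of the 24 read Ccnd2, the median over the 10 genes, each by the median of its tested probe sets, was lower at 0.17. In 20 of the 24 the groups did not overlap, which held for 55.3% of all tested probe sets. Leaving out any 1 sample, GFP_min replicate b included, left 13 higher and 6 lower, with every 1 of the 19 calls kept.

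How the arrays are centred shifts every difference by a constant. Centring on the median of the tested probe sets adds 0.20 to each log2 difference and centring on ribosomal protein genes adds 0.76, while centring on the bacterial poly-A control RNAs takes 0.43 off. The share of higher calls among all calls was 48.6% as deposited, 56.9% after quantile normalization, 73.0%, 93.1% and 6.90% under these centrings in turn. Among the 19 called member probe sets, none turned its direction with quantile normalization, median centring or ribosomal centring, and with poly-A centring only that of Cdkn2d did, to −0.0029. The differences below are on the deposited scale.

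**Figure D1:**
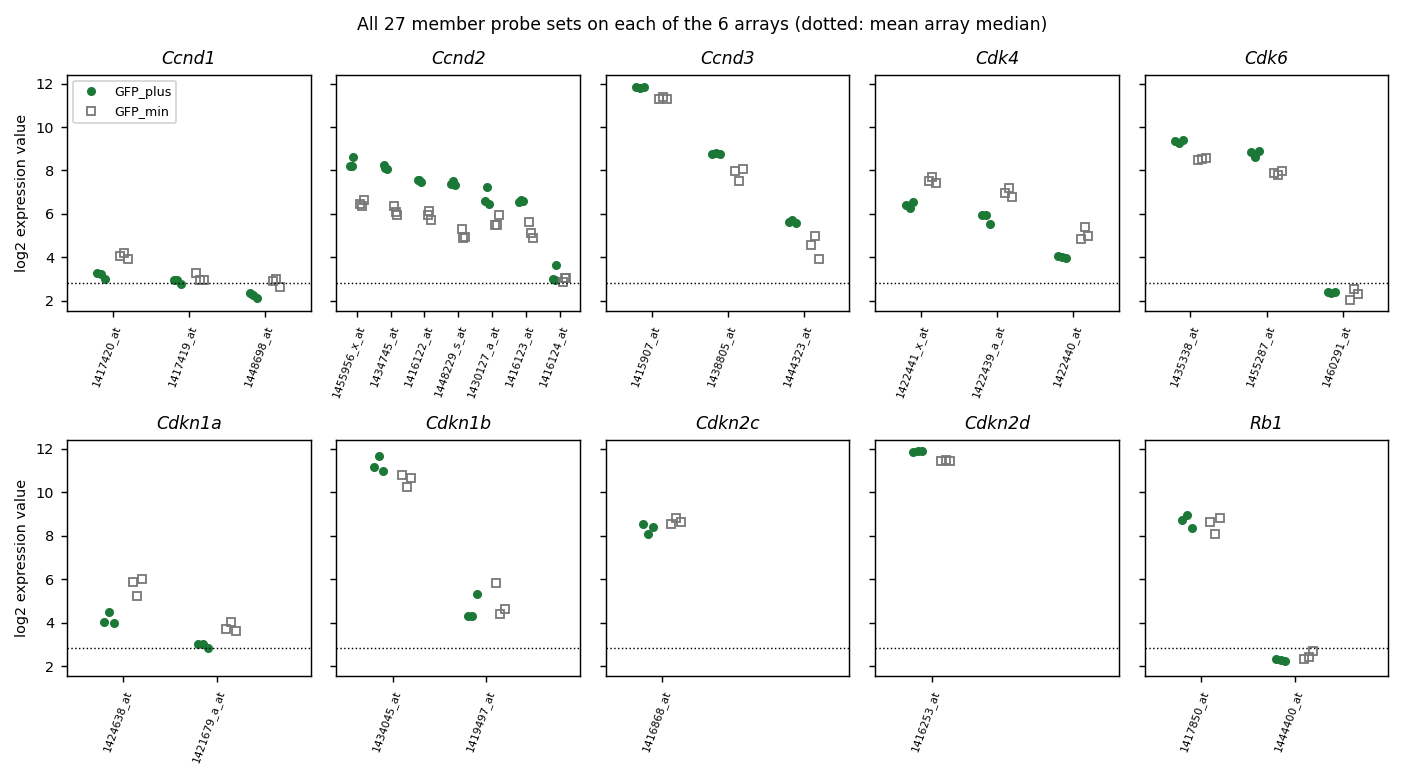
Values of all 27 probe sets of the 10 genes on each array (y axis, log2 expression value), with a panel per gene and a probe set per x position; green dots are the 3 GFP_plus arrays, grey squares the 3 GFP_min arrays, and the dotted line is the mean array median. GFP_plus lies above GFP_min on 6 of 7 Ccnd2 probe sets, and below it on all 3 Cdk4 probe sets.

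Ccnd2, the gene of cyclin D2, showed the largest rise of the members. Its probe set 1448229_s_at was 7.38, 7.50 and 7.34 in GFP_plus replicates a, b and c, and 5.31, 4.90 and 4.96 in GFP_min replicates a, b and c (log2). All GFP_plus arrays lay far above all GFP_min arrays, by 2.35 on average (SE 0.15, limma adjusted p = 1.236e-06, n = 3 each). Of all tested probe sets, this one included, 0.0131% rose as far. The probe set 1434745_at was 8.27, 8.13 and 8.09 in GFP_plus and 6.37, 6.11 and 5.96 in GFP_min, a rise of 2.02 (SE 0.13, limma adjusted p = 1.884e-06). Probe sets 1455956_x_at, 1416122_at, 1416123_at and 1430127_a_at rose by 1.85, 1.61, 1.39 and 1.12, with no overlap between groups. An ending in _x_at or _s_at means that some oligonucleotides can also match other transcripts or sequences. Of those ending in plain _at, 1434745_at, 1416122_at and 1416123_at rose. The seventh probe set, 1416124_at, lay near the array medians with 3.00, 2.95 and 3.64 in GFP_plus and 2.89, 3.05 and 3.06 in GFP_min, and did not pass (limma adjusted p = 0.379).

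Ccnd3, the gene of cyclin D3, rose on each of its probe sets. On 1415907_at it was 11.84, 11.79 and 11.85 in GFP_plus and 11.30, 11.39 and 11.31 in GFP_min. The groups were each narrow and apart, and the rise was 0.50 (SE 0.05, limma adjusted p = 3.716e-05). That rise was 0.07 with poly-A centring and did not pass there (limma adjusted p = 0.507). The probe set 1438805_at was 8.74, 8.82 and 8.77 in GFP_plus and 7.97, 7.52 and 8.08 in GFP_min, and 1444323_at was 5.61, 5.71 and 5.58 in GFP_plus and 4.59, 4.98 and 3.93 in GFP_min. They rose by 0.92 and 1.14, with GFP_min the more scattered group on both.

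Ccnd1, the gene of cyclin D1, was dim on all 3 probe sets. The probe set 1417420_at was 3.28, 3.25 and 3.00 in GFP_plus and 4.06, 4.22 and 3.91 in GFP_min, so GFP_plus came close to the array medians. It fell by 0.89 (SE 0.13, limma adjusted p = 0.000456), and with ribosomal centring the difference was −0.13 and did not pass (limma adjusted p = 0.388). The probe set 1417419_at was 2.97, 2.95 and 2.78 in GFP_plus and 3.30, 2.98 and 2.95 in GFP_min and did not pass (limma adjusted p = 0.255). The third, 1448698_at, was too dim to be tested, at 2.36, 2.29 and 2.13 in GFP_plus and 2.92, 2.99 and 2.64 in GFP_min. With no filter on dim probe sets it was called lower (−0.60, limma adjusted p = 0.00303).

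Cdk6 and Cdk4 encode the catalytic partners of the D cyclins, which phosphorylate RB on shared sites. Cdk6 on probe set 1435338_at was 9.36, 9.25 and 9.42 in GFP_plus and 8.48, 8.51 and 8.58 in GFP_min. Every GFP_plus array exceeded every GFP_min array, and the rise was 0.82 (SE 0.08, limma adjusted p = 3.801e-05). Its probe set 1455287_at rose by 0.91, with 8.86, 8.64 and 8.88 in GFP_plus and 7.89, 7.79 and 7.97 in GFP_min. The dim 1460291_at was below the median on every array and was not tested.

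Cdk4 on probe set 1422441_x_at was 6.43, 6.26 and 6.53 in GFP_plus and 7.50, 7.69 and 7.44 in GFP_min. All GFP_plus arrays lay below all GFP_min arrays, and Cdk4 fell by 1.14 there (SE 0.13, limma adjusted p = 6.103e-05). The probe set 1422439_a_at was 5.93, 5.95 and 5.55 in GFP_plus and 6.96, 7.20 and 6.80 in GFP_min, and 1422440_at was 4.07, 4.02 and 3.98 in GFP_plus and 4.85, 5.40 and 4.98 in GFP_min. The differences of the 3 probe sets lay between −1.18 and −1.06, and 5.35% to 6.26% of all tested probe sets, those of Cdk4 among them, fell as far. With ribosomal centring that of 1422440_at was −0.30 and did not pass (limma adjusted p = 0.112).

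The promoter windows of the kinases are shown because these partners of the same cyclins moved in opposite directions. They come from RefSeq on the mouse build GRCm38.p6, from 250 bases before to 50 bases after the annotated start, for 7 of the 10 members, among which Ccnd1, Ccnd2 and Rb1 are not. Of 7 motifs searched on both strands 3 matched in these windows, and capitals mark them: the E box CACGTG, which MYC and MAX and other helix-loop-helix factors bind, the GC box GGGCGG of SP1-type factors, and the TATA letters TATAAA. Cdk4 lies at chr10:127063285-127063584 on the plus strand and Cdk6 at chr5:3343643-3343942 on the plus strand.
Cdk4: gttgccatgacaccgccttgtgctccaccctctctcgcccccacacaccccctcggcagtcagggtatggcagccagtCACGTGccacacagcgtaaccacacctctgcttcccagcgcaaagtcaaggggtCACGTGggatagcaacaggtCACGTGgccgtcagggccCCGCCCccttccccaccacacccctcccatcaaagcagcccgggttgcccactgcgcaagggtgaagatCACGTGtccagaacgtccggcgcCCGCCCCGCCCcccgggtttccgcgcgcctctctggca
Cdk6: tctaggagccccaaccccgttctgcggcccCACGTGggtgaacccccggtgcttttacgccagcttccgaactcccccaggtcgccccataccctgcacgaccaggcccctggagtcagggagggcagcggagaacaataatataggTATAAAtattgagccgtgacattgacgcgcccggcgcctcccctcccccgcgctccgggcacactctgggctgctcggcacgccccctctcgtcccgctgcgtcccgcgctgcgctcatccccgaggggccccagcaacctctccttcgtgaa

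The Cdk4 window holds 4 E boxes, which begin 172, 118, 98 and 11 bases before the start, and 3 GC boxes, of which a pair overlap by 1 base. The Cdk6 window holds 1 E box, 220 bases before the start, and 1 TATA match, 103 bases before it. An E box occurs in 7.15% of all 32851 promoter windows of this length, and 4 or more occur in 8 of them (0.0244%). The cut of 4 is the count of the Cdk4 window itself, so this share does not test that window. A GC box occurs in 35.7% of all windows and in 7 of the 10 windows of the members, some of which have more than 1 annotated start. The E2F letters TTTGGCGC, TTTCCCGC, TTTCGCGC and TTTGCCGC were found in 0 of the 10 windows and in 2.26% of all. The other motifs searched were CCAAT (4 of the 10 windows, 37.4% of all), the STAT letters TTCNNNGAA (0 of 10, 8.30%) and the cyclic AMP element TGACGTCA (0 of 10, 1.79%). TATAAA is in 13.6% of all windows and an E box in 3 of the 10. A match is a run of letters, and no binding was measured in these samples.

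Cdkn1a encodes p21, the CIP/KIP inhibitor that p53 induces, and was the member with the largest fall. Its probe set 1424638_at was 4.03, 4.50 and 4.01 in GFP_plus and 5.88, 5.23 and 5.99 in GFP_min. GFP_min replicate b was the lowest of its group and still lay above all GFP_plus arrays, and Cdkn1a fell by 1.52 (SE 0.22, limma adjusted p = 0.0004). With each sample left out in turn, the difference lay between −1.76 and −1.37. The probe set 1421679_a_at was 3.01, 3.02 and 2.84 in GFP_plus and 3.70, 4.04 and 3.60 in GFP_min, and fell by 0.82 with GFP_plus at about the array medians. With ribosomal centring the difference was −0.07 and did not pass (limma adjusted p = 0.672).

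Cdkn1b encodes p27, the CIP/KIP inhibitor that accumulates in resting cells and is also controlled by protein turnover. Its bright probe set 1434045_at was 11.18, 11.69 and 11.00 in GFP_plus and 10.79, 10.23 and 10.67 in GFP_min. The groups were close but did not overlap, and the rise was 0.72 (SE 0.18, limma adjusted p = 0.0084). With poly-A centring the rise was 0.30 and did not pass (limma adjusted p = 0.205). The dimmer 1419497_at was 4.29, 4.30 and 5.31 in GFP_plus and 5.84, 4.42 and 4.63 in GFP_min, with overlapping groups and no call (limma adjusted p = 0.504), so the probe sets of Cdkn1b did not share a call.

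Cdkn2d encodes p19 INK4d, an inhibitor of CDK4 and CDK6. It was 11.84, 11.92 and 11.92 in GFP_plus and 11.46, 11.49 and 11.46 in GFP_min on its 1 probe set. Both groups were narrow, and the rise was 0.42 (SE 0.05, limma adjusted p = 7.964e-05), though with poly-A centring it was −0.0029. Cdkn2c, which encodes the related p18 INK4c, was 8.52, 8.07 and 8.42 in GFP_plus and 8.53, 8.84 and 8.63 in GFP_min. Replicate a of GFP_plus nearly met replicate a of GFP_min, and the difference of −0.33 did not pass (limma adjusted p = 0.0717). It passed downward with poly-A centring (−0.75, limma adjusted p = 0.000267) and upward with ribosomal centring (0.43, limma adjusted p = 0.00929).

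Rb1, the gene of the RB protein that the kinases act on, was 8.71, 8.95 and 8.36 in GFP_plus and 8.64, 8.07 and 8.84 in GFP_min on probe set 1417850_at. The groups overlapped, and the difference of 0.15 (SE 0.20) did not pass with limma (adjusted p = 0.566). With ribosomal centring it was 0.91 and passed (limma adjusted p = 0.00219). Its second probe set, 1444400_at, was below the median on every array and was not tested.

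**Figure D2:**
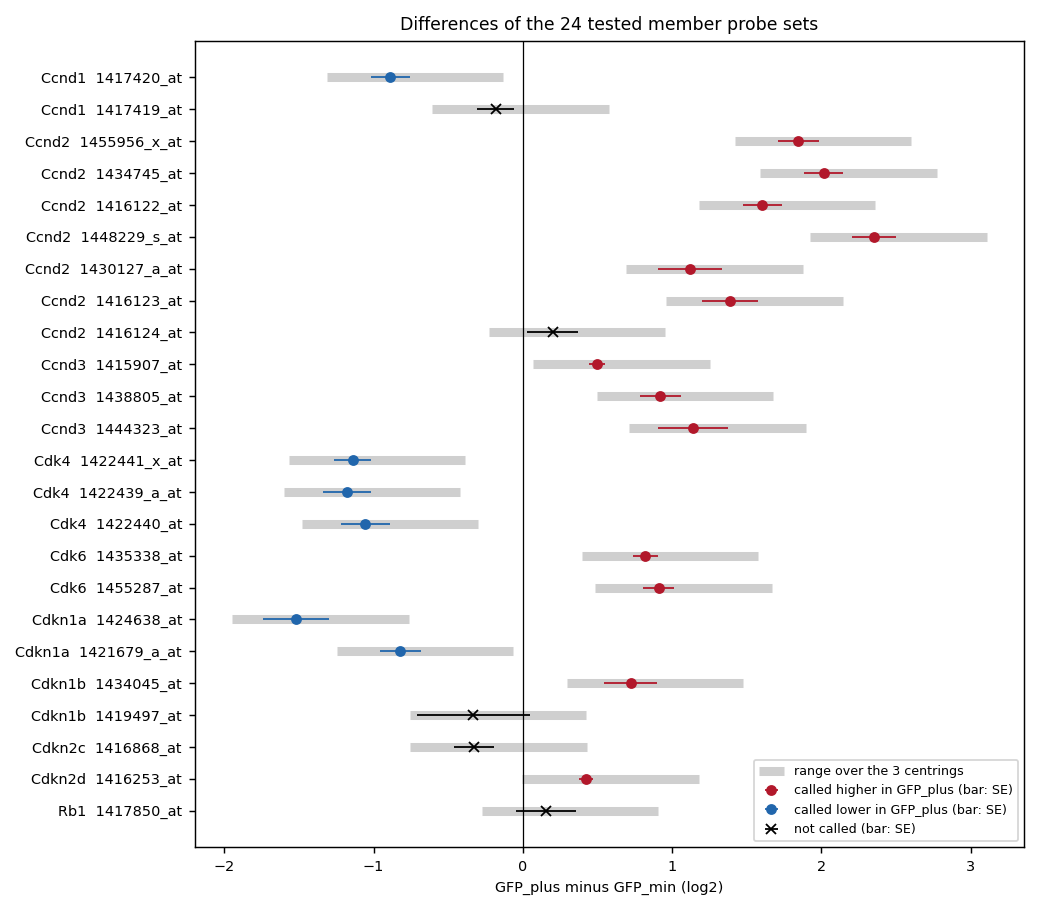
GFP_plus minus GFP_min for the 24 tested probe sets (x axis, log2), with red dots for probe sets called higher, blue dots for those called lower and crosses for those not called; thin bars are standard errors, and grey bands span the differences under the 3 centrings. The bands of Cdk6 and of the 6 called Ccnd2 probe sets stay above 0 and those of Cdk4 and of Cdkn1a 1424638_at below it. Of the 19 called probe sets, only that of Cdkn2d has a band that crosses 0.

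Gaps between members within an array do not depend on the centring. With each gene read by its brightest tested probe set, the gap of Cdk6 over Cdk4 was 2.93, 2.99 and 2.90 in GFP_plus replicates a, b and c and 0.98, 0.82 and 1.14 in GFP_min replicates a, b and c. It was wider in every GFP_plus array, by 1.96 on average, and only this shift has a meaning, since the size of a gap between different probe sets has none. The gap of Ccnd2 over Ccnd3 shifted by 1.35, that of Ccnd1 over Ccnd3 by −1.38, and that of Ccnd1 over Ccnd2 by −2.73. The gap of Cdkn1a over Cdkn1b shifted by −2.24 and that of Cdkn2c over Cdkn2d by −0.75. With the mean of a gene's tested probe sets in place of the brightest, the shift of Ccnd2 over Ccnd3 was 0.65 and that of Cdkn1a over Cdkn1b −1.37. The brightest probe sets of Cdk4 and Ccnd2 end in _x_at, so some of their oligonucleotides can also match other sequences. That of Ccnd1 came close to the array medians in GFP_plus. In all 6 pairs the groups did not overlap, and each had a two-sided exact permutation p of 0.1 (0.1 also after Benjamini-Hochberg adjustment over the 6), the smallest that 3 arrays against 3 can give. The gaps are built from the member values given above, and the D cyclin gaps share their genes, so these are not 6 separate results. Of single tested probe sets, 55.3% had no overlap, and the share among other gene pairs was not computed.

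**Figure D3:**
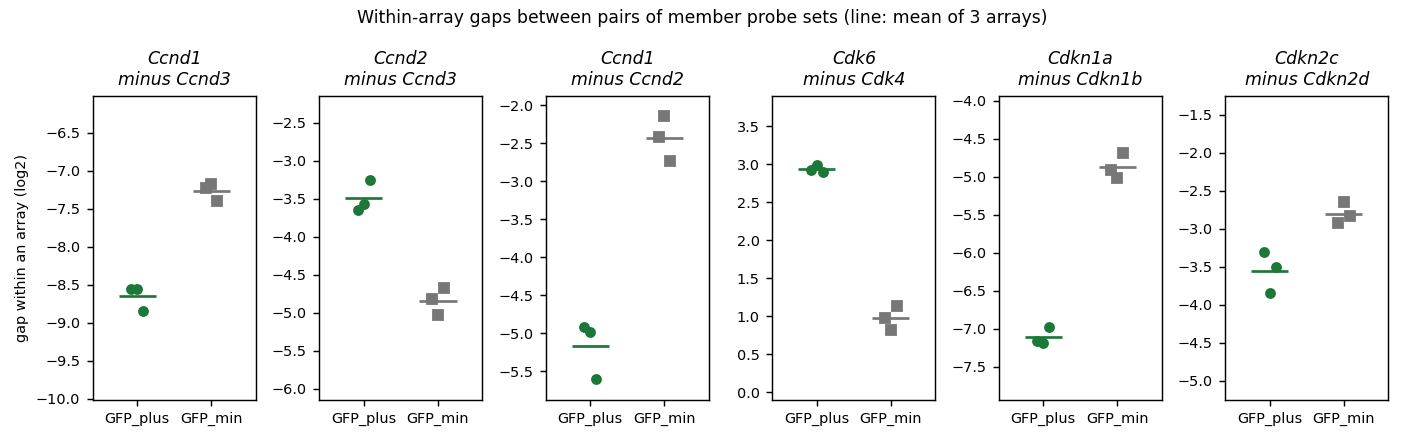
Gaps within each array between pairs of genes (y axis, log2; each panel spans the same range of values), with GFP_plus arrays as green dots on the left and GFP_min arrays as grey squares on the right; lines are means of 3 arrays. The groups are apart in all 6 panels, by 0.75 for Cdkn2c and Cdkn2d up to 2.73 for Ccnd1 and Ccnd2.

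The other genes of the pathway were 62 genes in 5 lists, of which 56 were tested, each by its brightest tested probe set. Of these, 16 were higher and 10 lower in GFP_plus, where 21.0% of all 10810 genes tested were higher and 27.6% lower. Under ribosomal centring the counts were 49 higher and 3 lower, and under poly-A centring 2 higher and 30 lower. Of the called partners named below, Cdt1, E2f5 and Cdk7 turn upward with ribosomal centring and Tfdp1 and Cdc20 downward with poly-A centring.

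Of the RB and E2F partners, of 11 tested 5 were higher and 3 lower (median difference 0.19, against 0.0023 over all genes). Ribosomal centring gave 8 higher and 1 lower, and poly-A centring 0 higher and 4 lower. E2f6, a repressive E2F that acts without RB, was 3.16 ± 0.13 in GFP_plus and 4.71 ± 0.16 in GFP_min (SD, n = 3 each), and fell by 1.55 (SE 0.14, limma adjusted p = 1.41e-05), a call that 1 of its 2 tested probe sets made. E2f5, a partner of the RB relatives, was at least 1.18-fold lower, a bound taken against the array medians that all 3 GFP_plus arrays were under. Tfdp1, the dimer partner of E2F proteins, rose by 0.39 and the activator E2f3 by 0.43. The count of 5 higher fell with each sample left out: without GFP_plus replicate a, GFP_min replicate a or GFP_min replicate c 2 were higher, and without GFP_plus replicate b, GFP_plus replicate c or GFP_min replicate b 3 were.

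Of the other cyclins, kinases, activators and turnover factors, of 21 tested 7 were higher and 5 lower (median difference 0.11). Ribosomal centring gave 17 higher and 2 lower, and poly-A centring 2 higher and 11 lower. Cdk2, the kinase that follows CDK4 and CDK6 at the entry to S phase, was 9.27 ± 0.08 in GFP_plus and 8.58 ± 0.07 in GFP_min, a rise of 0.68 (SE 0.08, limma adjusted p = 0.000135, n = 3 each). Cks2, a small CDK-binding subunit, rose by 0.45. Cdc37, the HSP90 co-chaperone that folds CDK4, fell by 0.81 on 1 of its 2 tested probe sets. Fbxo4, an F-box protein reported to mark cyclin D1 for destruction, fell by 1.27 (SE 0.13, limma adjusted p = 4.56e-05). Further genes of this list were chosen after their values were seen. Fbxo31, another F-box protein linked to cyclin D1 turnover, rose by 1.01, and the CDK phosphatase genes Cdc25a and Cdc25b rose by 0.58 and 0.92. Of the CDK-activating kinase, Mnat1 fell by 1.25 and Cdk7 by 0.56 (the call was made by 1 of 3 tested Cdk7 probe sets), while Ccnh differed by −0.13 and did not pass (2 of 3 tested Ccnh probe sets were not called).

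Of the other CDK inhibitors, Cdkn1c, Cdkn2a and Cdkn2b were too dim to be tested, and Cdkn3, a phosphatase of CDKs, differed by 0.29 and did not pass (limma adjusted p = 0.0986). Among S phase genes that E2F drives, of 15 tested 3 were higher and 2 lower (median difference 0.05). The counts for this list were 7 higher and 1 lower with median centring, 15 higher and 0 lower with ribosomal centring, and 0 higher and 10 lower with poly-A centring. Rrm2 (ribonucleotide reductase), Mcm2 (a replicative helicase subunit) and Cdc6 (which loads that helicase) rose by 0.43, 0.51 and 0.62, while Cdt1, another loading factor, fell by 0.43. Of the markers of G2 and mitosis, 1 of 8 tested was higher and 0 lower (median difference 0.11). It was Cdc20, an activator of the anaphase-promoting complex, which rose by 0.26 on its brightest probe set, a call that 2 of its 3 tested probe sets made. Without GFP_plus replicate a 0 of the 8 passed and without GFP_plus replicate b 2 did, while array weights gave 3 and quantile normalization 2. Centring set the direction of this list: median centring gave 6 higher and 0 lower, ribosomal centring 8 higher and 0 lower, and poly-A centring 0 higher and 5 lower. Mki67, which encodes the proliferation antigen Ki-67 and was chosen after its values were seen, was 11.57 ± 0.05 in GFP_plus and 11.56 ± 0.02 in GFP_min (SD, n = 3 each, limma adjusted p = 0.885).

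**Figure D4:**
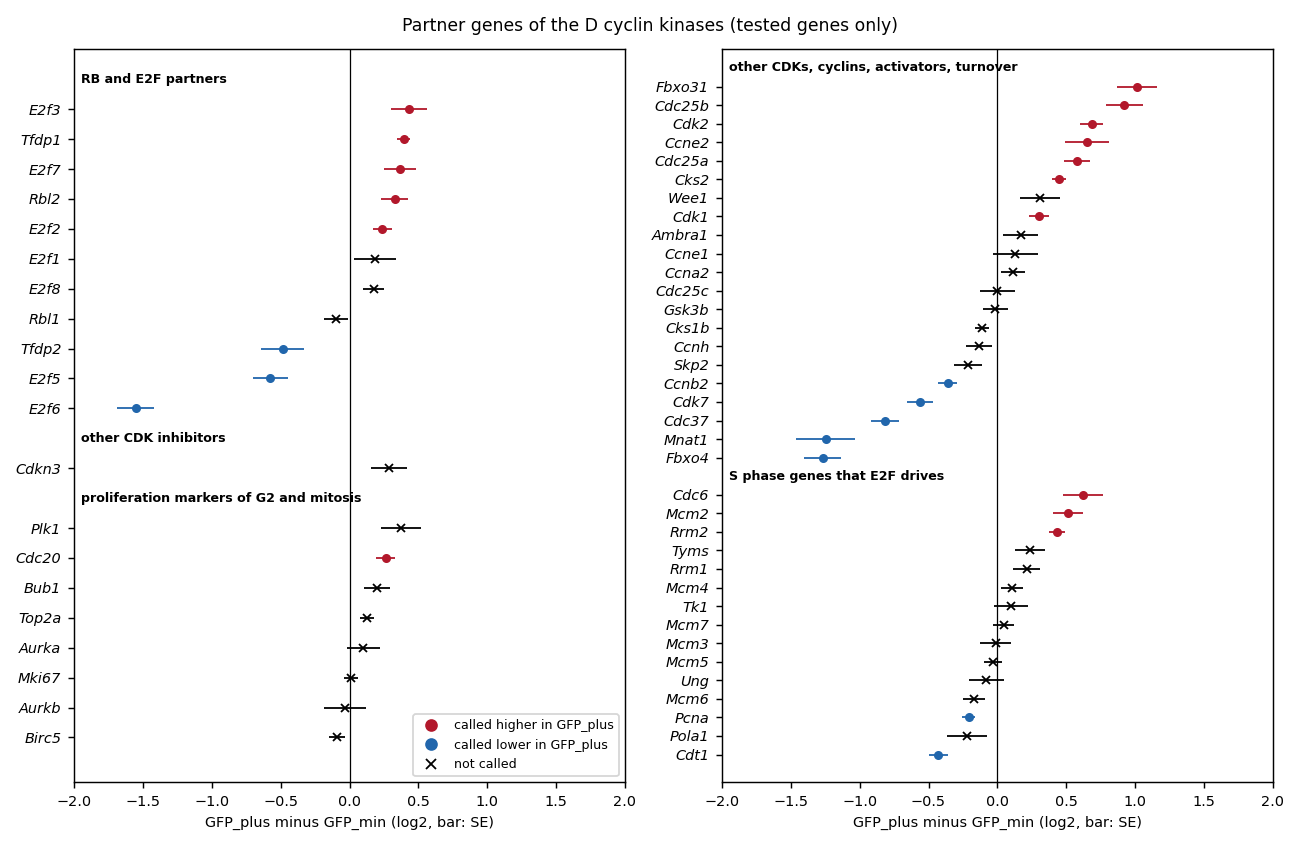
GFP_plus minus GFP_min for the 56 tested partner genes (x axis, log2; bars are standard errors), grouped by list; red dots are genes called higher, blue dots genes called lower and crosses genes not called. E2f6, Fbxo4 and Mnat1 lie furthest below 0, and 7 of the 8 markers of G2 and mitosis are not called.

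The profiles over the 6 arrays most like those of the extreme members were sought among all genes tested, by the Euclidean distance between profiles centred on their own means. Nearest to Ccnd2 on 1448229_s_at were Ptgs2, the cyclooxygenase-2 gene, Junb, an AP-1 transcription factor gene, the adhesion gene Vcam1, the mast cell carboxypeptidase gene Cpa3 and Nkg7, a granule membrane gene, at distances of 0.40 to 0.72. Nearest to Cdkn1a on 1424638_at were Ccdc90b, Bmf, which encodes a BH3-only death protein, Setd6, Zfp386 and the transcription factor gene Bcl11a, at distances of 0.26 to 0.43. Their own differences between the groups were 2.02 to 2.15 for the genes near Ccnd2 other than Cpa3, and −1.67 to −1.41 for those near Cdkn1a. Cpa3 lay below the array medians in GFP_min, so it was at least 2.23-fold higher in GFP_plus and its distance rests in part on values not above them.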

How the data were processed

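The members and the gene lists were chosen with earlier results of these data known. Per the labels, RNeasy Micro columns were used for RNA, and an Affymetrix 3′ IVT kit labelled 100 ng of it. The deposited table holds log2 values of 45101 probe sets on 6 arrays and was used unchanged. The submitters' processing notes list GCRMA; version, settings and filters were not given in the sources used here. The log2 scale was read from the values' range. Precision is limited by having 3 arrays a group.

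Names come from the platform annotation at GEO (34945 with 1 symbol, 932 with several, 9160 with none given, 64 controls left out), and the gene IDs of 34754 probe sets were matched to a RefSeq table to update symbols. GFP_plus minus GFP_min was fitted without a replicate block by limma 3.58.1 in R 4.3.3 (lmFit, eBayes with an intensity trend) over the 22956 probe sets above the array median on at least 3 arrays, with Benjamini-Hochberg adjustment and a threshold of 0.05. The fitting code was tested on simulated data. For a group under its array medians on every array, the fold against the medians is given as a bound. Named were all members, in each list the called genes with the smallest adjusted p, at most 4 (with no call, the 1 gene with the largest difference), and the 5 genes nearest to the member probe sets with the largest rise and fall, clone names left out. Alternatives changed the filter, variance trend, array weights, normalization, centring, the probe sets of a gene, the replicate block and the samples. Titles give both groups the letters a, b and c. Plots used Python 3.11.15 and matplotlib 3.10.9.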

Additional observations from a re-analysis of the deposited data

How the results depend on the processing

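The 19 called probe sets kept direction and call under array weights, quantile normalization, no variance trend, no filter, the replicate block and each sample left out. With the level filter on all 6 arrays, Cdkn1a 1421679_a_at was no longer tested and the other called ones kept theirs; calls were otherwise lost with centring alone. The labels do not say that the replicate letters pair the samples, so the letters were not taken as pairs. Deviations from the group means of arrays with the same letter correlated at −0.18, −0.30 and −0.22, which does not settle whether they are pairs. The replicate block gave 13 higher and 6 lower member probe sets, 3844 higher and 4547 lower among all tested probe sets, and 1 higher RB and E2F partner. Without 1 sample, all probe sets gave 3852 to 4491 higher and 4616 to 4858 lower, and partner genes 12 to 16 higher and 9 to 10 lower.

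With median centring, 9734 probe sets and 31 partner genes were higher, and Ccnd1 1417419_at turned to 0.0202. With ribosomal centring, 18653 probe sets were higher and 1392 lower, and 49 partner genes were higher and 3 lower. Of the member probe sets, 17 were higher and 3 lower. There Ccnd1 1417419_at turned to 0.57 and passed, Cdkn1b 1419497_at to 0.42 and Cdkn2c to 0.43. Ccnd2 1416124_at passed upward under this centring, at 0.955 (limma adjusted p = 0.000348). With poly-A centring, 908 probe sets were higher and 12248 lower, and 2 partner genes were higher and 30 lower. There Ccnd2 1416124_at turned to −0.23, Cdkn2d to −0.0029 and Rb1 to −0.27. Ccnd1 1417419_at passed downward under this centring, at −0.61 (limma adjusted p = 0.00254). Of the member probe sets, 10 were higher and 8 lower with it. Each centring adds a constant to every difference. It also takes a separate value off each array, so the spread within groups and the p-values change as well. Without 1 sample, 3 uncalled probe sets turned: Ccnd2 1416124_at ranged from −0.0230 to 0.32, Cdkn1b 1419497_at from −0.67 to 0.11 and Rb1 from −0.0715 to 0.31. The gap shifts kept their direction without each sample and with the mean of a gene's tested probe sets, where that of Ccnd2 over Ccnd3 was 0.65 and that of Cdkn1a over Cdkn1b −1.37. Ccnd1 and the dim probe sets of Cdk6 and Rb1 lie near the array medians, where signal over background limits what can be read.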

Other observations

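The probe sets of Cdkn1b (1434045_at) and Rb1 (1417850_at), chosen after their values were seen, shared the array with the highest value, GFP_plus replicate b (11.69 and 8.95), and the array with the lowest value, GFP_min replicate b (10.23 and 8.07). The other Cdkn1b probe set, 1419497_at, was highest on GFP_min replicate a (5.84) and lowest on GFP_plus replicate a (4.29). How many tested probe sets share such extreme arrays was not computed. Cdkn2c had its lowest value on GFP_plus replicate b (8.07) and its highest on GFP_min replicate b (8.84).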
